A study of Mus musculus with 6 samples.

Results

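The genes of the cytoplasmic ribosomal proteins were examined in plasmacytoid dendritic cells (pDCs) with and without induced deletion of *Gfi1* and *Gfi1b*. Members were the microarray probe sets whose annotation held exactly 1 gene symbol, and whose symbol was *Rpsa*, *Rplp0*, *Rplp1*, *Rplp2*, or *Rpl* or *Rps* followed by a number and at most a short suffix. Pseudogene symbols and the *Rps6k* kinases were left out. This gave 193 probe sets of 61 genes, out of 21640 probe sets with 1 symbol and 19937 genes in all. Of the 193, 110 probe sets of 30 genes belonged to the large subunit, 70 of 21 genes to the small subunit, 5 of 3 genes to the P stalk, and 8 of 7 genes to paralogs whose symbols end in l or l1.

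The cells were B220+ CD11c+ cells sorted from Flt-3L cultures (25 ng/ml) of bone marrow from 3 C57BL/6 mice. KO pDCs were the 3 cultures, 1 per mouse, treated with 1 µM tamoxifen. WT pDCs were the 3 cultures of the same mice without tamoxifen. Every mouse was Gfi1f/f; Gfi1bf/f; ERCre, so the cells called WT also carried both floxed genes and the tamoxifen-inducible Cre, which the study places at the ubiquitous Rosa26 locus. The groups thus differed in tamoxifen as well as in deletion, and these cannot be told apart here. The study describes deletion in these cultures as inefficient by genotyping. The array signal of both targeted genes was higher in the arrays labelled KO, without overlap, as it was for 10.2% of all probe sets tested. *Gfi1b* read 194, 279 and 259 in KO pDCs of mice 1, 2 and 3, against 179, 161 and 155 in WT pDCs (log2 difference 0.55 ± 0.16, SE, limma adjusted p = 0.692). *Gfi1* read 60.5, 67.1 and 61.9 in KO pDCs, against 56.1, 47.8 and 43.3 in WT pDCs (0.37 ± 0.12, adjusted p = 0.692). The mean of *Gfi1* and all its WT values lay under a background percentile of 61.8, defined below. These values show no loss of signal in KO pDCs, and the sources used here do not say where the probes lie relative to the deleted exons. KO therefore means the tamoxifen-treated culture by its label throughout, including every direction given as KO minus WT. Each sample gave 1 array (Affymetrix Mouse Gene 1.0 ST, 200 ng of RNA), and values are intensities in arbitrary units that the authors had normalized between arrays. Because probes differ in brightness, intensities are compared between arrays within a probe set and never between probe sets as amounts of RNA. In sorted cells from a culture, fewer cells of a type and less RNA per cell cannot be told apart.

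A ribosome is built from a small subunit, which reads the mRNA, and a large subunit, which joins amino acids. Each is a core of ribosomal RNA clad in proteins, most of them present as a single copy per ribosome. The mRNAs of these proteins are among the most abundant in a cell and are controlled largely together. Vertebrate ribosomal protein mRNAs typically start with a C followed by an unbroken run of pyrimidines, the terminal oligopyrimidine (TOP) element, through which mTOR signalling adjusts their translation. pDCs are specialised in making type I interferon.

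The naming rule did not use the start of the transcript, and the windows below show it, with or without a pyrimidine run, for genes described in the results. RefSeq start-site sequences (GRCm38.p6) were at hand for 49 of the 61 genes, 58 promoters in all. A run was searched for on the sense strand from 15 bases before to 15 bases after each annotated start, as a C followed by at least 4 bases that were each C or T. The search found it at 32 of the 58 promoters (55.2%) and at 36.4% of all 32851 promoters. Runs of at least 8 bases occurred at 29.3% of the members' promoters and at 9.26% of all. On the opposite strand the order was the other way round, with 24.1% of the members' promoters and 40.8% of all. Each window below is written 5′ to 3′ with the runs in capitals, and the annotated start follows base 15. *Rpl27a*, *Rps6*, *Rpl28*, *Rplp2* and *Rps15a* had a run at or across the start. Both runs of *Rpl39l* and the longer run of *Rps27l* ended before the start, so they lie upstream of the annotated transcript. *Rps27l* and *Rpl3l* had a short run after the start, and *Rpsa* and *Rplp0* had none within this window. *Rps27l* and *Rpl3l* each have a second annotated start, not printed, whose window held no run.
Rpl27a, chr7:109519180-109519209, plus strand: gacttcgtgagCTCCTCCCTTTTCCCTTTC
Rps6, chr4:86857353-86857382, minus strand: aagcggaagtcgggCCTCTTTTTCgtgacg
Rpl28, chr7:4792950-4792979, plus strand: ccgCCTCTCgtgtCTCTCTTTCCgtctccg
Rplp2, chr7:141447636-141447665, plus strand: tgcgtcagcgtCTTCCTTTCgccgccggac
Rps15a, chr7:118116133-118116162, minus strand: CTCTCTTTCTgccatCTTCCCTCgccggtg
Rps27l, chr9:66946071-66946100, plus strand: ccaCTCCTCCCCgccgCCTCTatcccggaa
Rpl39l, chr16:10170213-10170242, plus strand: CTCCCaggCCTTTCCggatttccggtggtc
Rpl3l, chr17:24727811-24727840, plus strand: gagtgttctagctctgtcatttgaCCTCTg
Rpsa, chr9:120127751-120127780, plus strand: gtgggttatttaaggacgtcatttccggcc
Rplp0, chr5:115559452-115559481, plus strand: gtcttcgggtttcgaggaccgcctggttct

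Ribosomal protein probe sets were nearly level between KO and WT pDCs. The median intensity over the 193 probe sets was 2901, 2433 and 2490 in the KO arrays of mice 1, 2 and 3, against 2749, 2608 and 2545 in their WT arrays. The KO and WT arrays overlapped in this measure. The median log2 difference, KO minus WT, was 0.01 over the members and 0.03 over all probe sets tested. Within mice 1, 2 and 3 the members' medians were 0.050, -0.003 and 0.015. The quartiles of the members lay at -0.06 and 0.08 and the extremes were -1.28 and 1.08. In absolute size, 177 members differed by less than 0.25 on the log2 scale (91.7%, against 80.9% of all probe sets tested). The 95% interval of the difference lay within 0.5 either way for 139 members (72%, against 55.3% of all), and for 165 with mouse as a block (85.5%, against 72.6% of all). A mean difference of 2-fold or more was found for 1 member in the higher direction (0.518%, against 0.0231% of all) and 1 in the lower (0.518%, against 0.273%), both single probe sets described below.

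No member passed the test between the groups. In the limma fit over all 21640 probe sets, with Benjamini-Hochberg adjustment, the adjusted p was under 0.05 for 0% of the probe sets tested, and the smallest adjusted p among the members was 0.692. At an unadjusted limma p under 0.05 there were 5 members (2.59%, against 7.05% of all). Of these, 3 were higher in KO pDCs (1.55%, against 5.14% of all) and 2 were lower (1.04%, against 1.9% of all). When the medians of the arrays were set equal, this split was 1 higher and 3 lower, against 2.68% and 3.82% of all. Without the KO array of mouse 1 it was 0 higher (against 4.84% of all) and 8 lower (4.15%, against 2.32% of all). With mouse as a block, which compares the 2 cultures of each mouse directly, none passed after adjustment, while 7 members were higher (against 7.46% of all) and 4 were lower (against 5.99% of all) at an unadjusted p under 0.05. The members' shares were below those of all probe sets in both directions in the fits with and without the block. They were above for lower values when the KO array of mouse 1 was left out. At a mean intensity of 1000 or more, 1.72% of 116 members were higher without the block, against 0.946% of 740 other probe sets. Lower ones made up 0% against 1.35%. With the block these shares were 1.72% against 3.78% higher and 0% against 3.92% lower. The KO arrays were all above the WT arrays for 10 members (5.18%, against 10.2% of all) and all below them for 4 (2.07%, against 4.65%). The direction was the same in all 3 mice for 40 higher members (20.7%, against 21.3%) and 22 lower members (11.4%, against 17.4%). At an intensity of 1000 or more, KO arrays were all above WT arrays for 8 of 116 members and 30 of 740 others. They were all below for 3 and 38. At that intensity 29 members and 120 others were higher in all 3 mice, and 16 and 185 were lower.

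**Figure D1:**
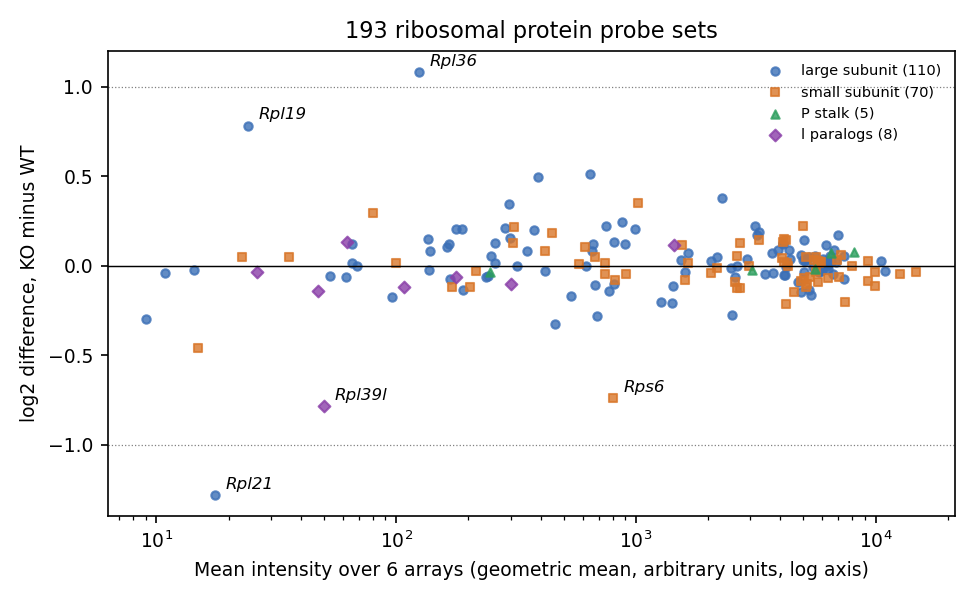
Log2 difference (KO minus WT, y axis) of each of the 193 ribosomal protein probe sets against its geometric mean intensity over 6 arrays (x axis, arbitrary units, log scale), with symbols for the class of protein and dotted lines at a log2 difference of 1 either way. Above an intensity of 1000 the points stay between -0.28 and 0.38, and the 5 labelled probe sets, which reach 1.08 and -1.28, lie below it.

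Large differences were found only among the dimmer members. The 116 members with a mean intensity of 1000 or more had differences from -0.28 to 0.38, and 113 of them were within 0.25. Their residual SD on the log2 scale had a median of 0.083, against 0.176 for the 740 other probe sets in that range of intensity. The 77 dimmer members ran from -1.28 to 1.08, with a median residual SD of 0.238. As a measure of background, the 95th percentile of 1204 probe sets of a receptor list was an intensity of 61.8. Of the members, 12 had a mean below it (6.22%, against 42.2% of all probe sets tested). The receptor list had a median difference of 0.14, with 12.2% higher and 0.249% lower in KO pDCs at an unadjusted limma p under 0.05. When dim probe sets were left out, 1.69% of the remaining 10820 were higher and 2.93% lower, with a median of -0.045. Dim probe sets thus raise the share of higher values and the median over all probe sets. They reduce the share of lower values.

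In the small subunit, 66 of 70 probe sets were within 0.25, and the median difference was 0.01. *Rps7*, a small-subunit protein needed for rRNA processing, had the largest positive difference of the class among probe sets that went the same way in every mouse. Its probe set 10399760 read 1090.0, 1048 and 1349.9 in KO pDCs of mice 1, 2 and 3, against 809, 1013 and 913 in WT pDCs. All KO values were above all WT values, by 0.35 ± 0.14 on the log2 scale (SE, limma adjusted p = 0.702). The other *Rps7* probe sets were at 0.15 and 0.01. *Rps15a* had a single probe set, which read 349, 307 and 351 in KO pDCs, against 301, 273 and 292 in WT pDCs. These values also did not overlap, and the difference was 0.22 ± 0.10 (adjusted p = 0.712). For *Rps28*, probe set 10516479 was at 0.22 ± 0.13 (adjusted p = 0.734). Its KO values were 5042, 4906 and 6272, against 4898, 4703 and 4261 in WT pDCs, so that most of the difference came from mouse 3. Both of the brighter *Rps13* probe sets, 10567163 and 10573693, had KO values above all WT values, by 0.13 and 0.14, while the third was at -0.09.

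Lower values in the small subunit were led by *Rps6* and *Rps12*. *Rps6* is the protein phosphorylated by the S6 kinases downstream of mTOR. Its probe set 10421571 read 1306, 480.2 and 381 in KO pDCs of mice 1, 2 and 3, against 1355, 1006 and 819 in WT pDCs. Mouse 1 was nearly level (-0.05), and mice 2 and 3 were at -1.07 and -1.10. The mean difference was -0.74 ± 0.47 (SE, limma adjusted p = 0.746, and 0.307 with mouse as a block). The other 6 *Rps6* probe sets lay between -0.08 and 0.05. *Rps12* probe set 10475435 read 13.4, 13.0 and 11.8 in KO pDCs, against 14.7, 21.4 and 17.0 in WT pDCs. All KO values were below all WT values (-0.46 ± 0.15, adjusted p = 0.692), but all were in the range of the background, and with a floor at the 20th percentile of intensities the difference was 0.09. The other 6 *Rps12* probe sets had positive differences, of at most 0.15. For *Rps15*, probe set 10538629 was at -0.20 ± 0.12, and for *Rps29* all 4 probe sets were between -0.12 and -0.04. The X-linked *Rps4x* likewise had all 4 probe sets below 0, between -0.14 and -0.04, none of them past the test.

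*Rps19* and *Rpsa*, small-subunit genes named for a special role, had no probe set past the test. *Rps19*, whose mutation causes Diamond-Blackfan anaemia in humans, read 1760.1, 1577 and 1354 in KO pDCs, against 1590.1, 1765 and 1578 in WT pDCs (-0.08 ± 0.12, limma adjusted p = 0.897). Its 95% interval was -0.38 to 0.22. *Rpsa*, which also serves as a laminin receptor, had 5 probe sets between -0.13 and 0.12. *Rps27a*, which is made as a fusion with ubiquitin, had no probe set of its own symbol alone.

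In the large subunit, 99 of 110 probe sets were within 0.25, and the median difference was 0.02. *Rpl13* probe set 10503249 read 869.6, 585 and 881 in KO pDCs of mice 1, 2 and 3, against 578, 516 and 519.9 in WT pDCs. All KO values were above all WT values, by 0.51 ± 0.18 (SE, limma adjusted p = 0.692). Another *Rpl13* probe set, 10492229, went the other way in all 3 mice, with 568, 382 and 322 in KO pDCs and 577, 498 and 477 in WT pDCs (-0.32 ± 0.22, adjusted p = 0.758). The 9 probe sets of this gene had a median of -0.02. *Rpl27a* probe set 10491062 read 3348, 3193 and 3593 in KO pDCs, against 2894, 2891 and 2903 in WT pDCs. The KO values stood above a tight group of WT values, by 0.22 ± 0.09 (adjusted p = 0.702), and the 9 probe sets of *Rpl27a* ran from -0.17 to 0.22. *Rpl28* probe set 10518329 read 3069.7, 2208 and 2595 in KO pDCs, against 2235, 1654 and 2168 in WT pDCs. It was higher in each mouse, by 0.46, 0.42 and 0.26 (mean 0.38 ± 0.17, adjusted p = 0.712), although the groups overlapped. All 3 *Rpl28* probe sets had positive differences.

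**Figure D2:**
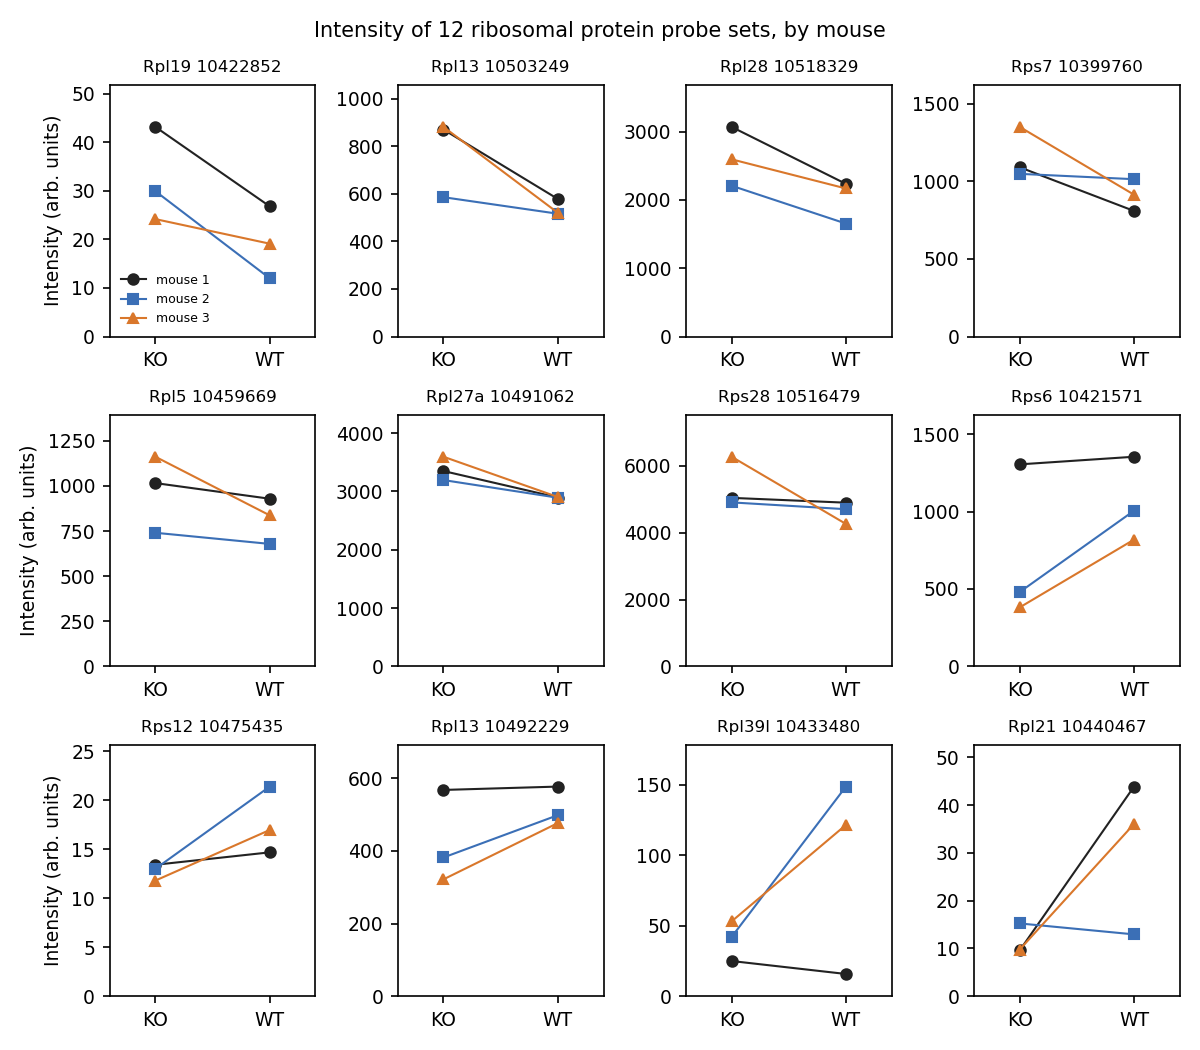
Intensity (y axis, arbitrary units, from 0) of 12 ribosomal protein probe sets in KO (left) and WT (right) pDCs, with a symbol and a line for each of the 3 mice. *Rpl27a* 10491062 shows 3 KO values above WT values of 2891 to 2903, while for *Rps6* 10421571 and *Rpl39l* 10433480 mouse 1 runs differently from mice 2 and 3.

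Of the remaining large-subunit probe sets, those of *Rpl36* are given further below. Among the others, *Rpl19* 10422852 and *Rpl21* 10440467 had the largest differences and lay near the background. *Rpl19* probe set 10422852 read 43.2, 29.9 and 24.2 in KO pDCs, against 26.8, 11.99 and 19.1 in WT pDCs (0.78 ± 0.34, limma adjusted p = 0.708). It was higher in every mouse, all 6 values lay under the background percentile, and the other *Rpl19* probe sets ran from 0.00 to 0.22. *Rpl21* probe set 10440467 read 9.58, 15.2 and 9.77 in KO pDCs, against 43.9, 12.9 and 36.1 in WT pDCs. Its difference of -1.28 ± 0.47 (adjusted p = 0.692) was the lowest of all members, with mouse 2 in the opposite direction at 0.24. The other 8 *Rpl21* probe sets lay between -0.30 and 0.49. *Rpl6* probe set 10366301 read 1153, 1171 and 1231 in KO pDCs, against 1519, 1263 and 1326 in WT pDCs. Every KO value was below every WT value (-0.20 ± 0.10, adjusted p = 0.718), well above the background. *Rpl38* probe set 10509560 was at -0.28 ± 0.19, and *Rpl21* probe set 10548246 at 0.49 ± 0.22. *Rpl12* had a single probe set at -0.17 ± 0.21, and *Rpl9* probe set 10439402 was at -0.16 ± 0.16, both lower in all 3 mice with overlapping groups.

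*Rpl5*, which with *Rpl11* and 5S rRNA binds the p53 regulator MDM2, had 4 probe sets between -0.05 and 0.34. Probe set 10459669 was higher in every mouse, with 1016, 740.3 and 1162 in KO pDCs and 929, 679 and 837 in WT pDCs (0.24 ± 0.20). The highest, 10344931, read 522, 279.7 and 251 in KO pDCs of mice 1, 2 and 3, against 366, 190.2 and 257 in WT pDCs. The 2 first mice were at 0.51 and 0.56 and mouse 3 at -0.04 (mean 0.34 ± 0.35, limma adjusted p = 0.833). *Rpl22*, needed for the development of αβ T cells, read 629.6, 631 and 601 in KO pDCs, against 573, 667 and 629.9 in WT pDCs. The groups overlapped, the difference was 0.00 ± 0.10 (adjusted p = 0.996), and its 95% interval was -0.24 to 0.23.

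*Rpl36*, a large-subunit protein, was measured by 8 probe sets, of which 7 were level and 1 held the highest difference of all members. Probe set 10378783 read 424, 111 and 125 in KO pDCs of mice 1, 2 and 3, against 237, 62.6 and 42.1 in WT pDCs. KO exceeded WT within each mouse, by 0.84, 0.83 and 1.58, while the groups overlapped because both cultures of mouse 1 were above those of the other mice. The mean difference was 1.08 ± 0.78 (SE, limma adjusted p = 0.774), with a 95% interval of -0.79 to 2.96. With mouse as a block the interval was 0.68 to 1.48 and the adjusted p was 0.259. The difference was 0.47 when the KO array of mouse 1 was left out, 0.57 when the WT array of mouse 3 was, and 1.82 when the WT array of mouse 1 was, and none of these passed the test. All 6 values of this probe set were apart by whole steps of 1/6 of an intensity unit (tolerance 0.001), which held for 1 other member, a probe set of *Rps28*, and for 0.116% of all probe sets tested. A single probe's value after quantile normalization over 6 arrays would lie on such steps, so this value may rest on 1 probe, which the sources used here do not settle. Finer steps were not searched for, so further members, *Rpl13* 10503249 among them, may also rest on 1 probe.

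**Figure D3:**
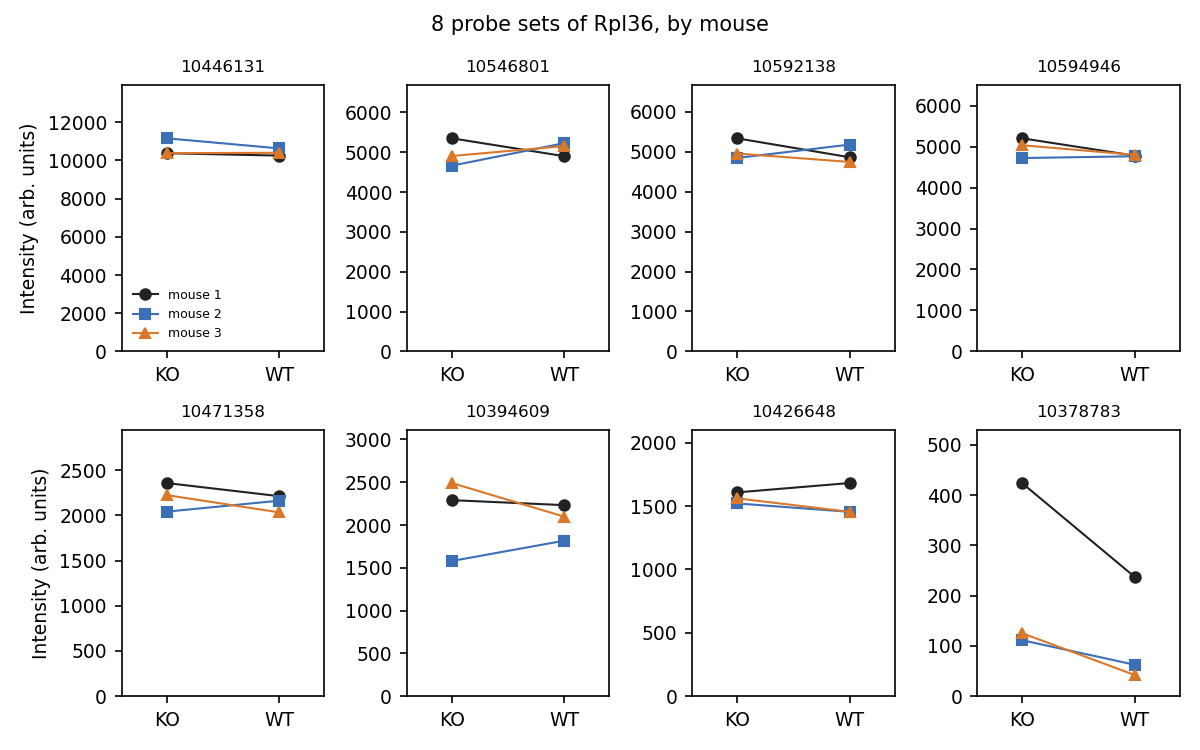
Intensity (y axis, arbitrary units, from 0) of the 8 *Rpl36* probe sets in KO (left) and WT (right) pDCs, with a symbol and a line for each of the 3 mice. In the panel of 10378783 all 3 lines are higher at KO and mouse 1 stands apart (424 in KO, 237 in WT), while the lines of the other 7 panels are nearly level.

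The other *Rpl36* probe sets were brighter. The brightest, 10446131, read 10381, 11163 and 10382 in KO pDCs, against 10256, 10633 and 10403 in WT pDCs (0.03 ± 0.08, limma adjusted p = 0.953). The 7 differences ran from -0.04 (probe set 10546801, 95% interval -0.26 to 0.19) to 0.06 (probe set 10594946, 95% interval -0.15 to 0.27). The intervals of 6 of the 7 lay within 0.3 either way, and the widest, for probe set 10394609, was -0.44 to 0.49. The median of the 8 probe sets was 0.03 and their mean 0.16.

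The P stalk is the flexible arm of the large subunit, made of *Rplp0* at its base and *Rplp1* and *Rplp2* at its tip, that recruits the GTPases of translation. All 5 of its probe sets were within 0.25, and their 95% intervals were all within 0.5. *Rplp1* probe set 10581495 read 6621, 6753 and 6633 in KO pDCs, against 6245, 6609 and 6232 in WT pDCs. All KO values were above all WT values by a narrow margin (0.07 ± 0.08, limma adjusted p = 0.861), and the second *Rplp1* probe set was at 0.08 ± 0.10. *Rplp2* read 262, 255 and 216 in KO pDCs, against 271, 228 and 252 in WT pDCs (-0.04 ± 0.12), with overlapping groups. Both probe sets of *Rplp0*, a gene often taken as a constant reference, were at -0.02.

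The paralogs are extra copies of ribosomal protein genes, some of them restricted to a tissue. *Rps27l* was the brightest of the class. It read 1398, 1434 and 1664 in KO pDCs, against 1142, 1607 and 1429 in WT pDCs, and the groups overlapped (0.12 ± 0.15, limma adjusted p = 0.872). *Rpl7l1* read 329, 261 and 287 in KO pDCs, against 318, 292 and 330.4 in WT pDCs (-0.10 ± 0.12). The muscle paralog *Rpl3l* and the male germline paralog *Rpl10l* were under the background percentile on average, at -0.14 ± 0.19 and -0.04 ± 0.11. *Rpl32l* had 1 probe set at 0.13 ± 0.11, higher in all 3 mice. The 2 probe sets of *Rps4l*, which RefSeq lists as a transcribed pseudogene, were at -0.12 and -0.07.

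*Rpl39l*, the other germline paralog, was the only paralog outside 0.25. Its mean was also under the background percentile, as were all 3 of its KO values. It read 24.9, 42.0 and 53.0 in KO pDCs of mice 1, 2 and 3, against 15.7, 149 and 121 in WT pDCs. Mice 2 and 3 had lower KO values (-1.82 and -1.20), and mouse 1, dim in both cultures, was at 0.66. The mean difference was -0.79 ± 0.86 (SE, limma adjusted p = 0.845). Without mouse 1 the adjusted p of *Rpl39l* was 0.022, the only member to pass in any fit, in a fit in which 108 of the 21640 probe sets passed.

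The probe sets of a gene were not always alike. Several were present for 38 genes, with 170 probe sets, from 2 probe sets up to the 10 of *Rpl23a*. The probe sets of a gene can be its own transcript or near-identical copies elsewhere in the genome, of which RefSeq lists 321 pseudogene entries named for these genes, and the annotation does not separate them, so values of single probe sets are uncertain in their source. The widest spreads belonged to *Rpl21* (-1.28 to 0.49), *Rpl36* (-0.04 to 1.08), *Rpl13* (-0.32 to 0.51), *Rps6* (-0.74 to 0.05) and *Rpl19* (0.00 to 0.78), and their end points farthest from 0 were probe sets with a mean intensity under 1000. In the 15 genes whose probe sets all had a mean of 1000 or more, the range spanned 0.001 to 0.42, with a median of 0.10. In the other 23 genes it spanned 0.06 to 1.77, with a median of 0.30. The widest of the 15 were *Rpl38* (-0.28 to 0.14) and *Rpl28* (0.02 to 0.38), and *Rpl23* (-0.04 to -0.03) and *Rps14* (both at 0.02) were among the narrowest. All 4 probe sets of *Rpl10a* had positive differences (0.01 to 0.21). In *Rps18*, 6 of 7 were below 0 (-0.21 to 0.08), and in *Rpl23a*, 7 of 10 were above 0 (-0.10 to 0.20). With 1 mean value per gene no gene was past an unadjusted p under 0.05, and the median over the 61 genes was -0.02.

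**Figure D4:**
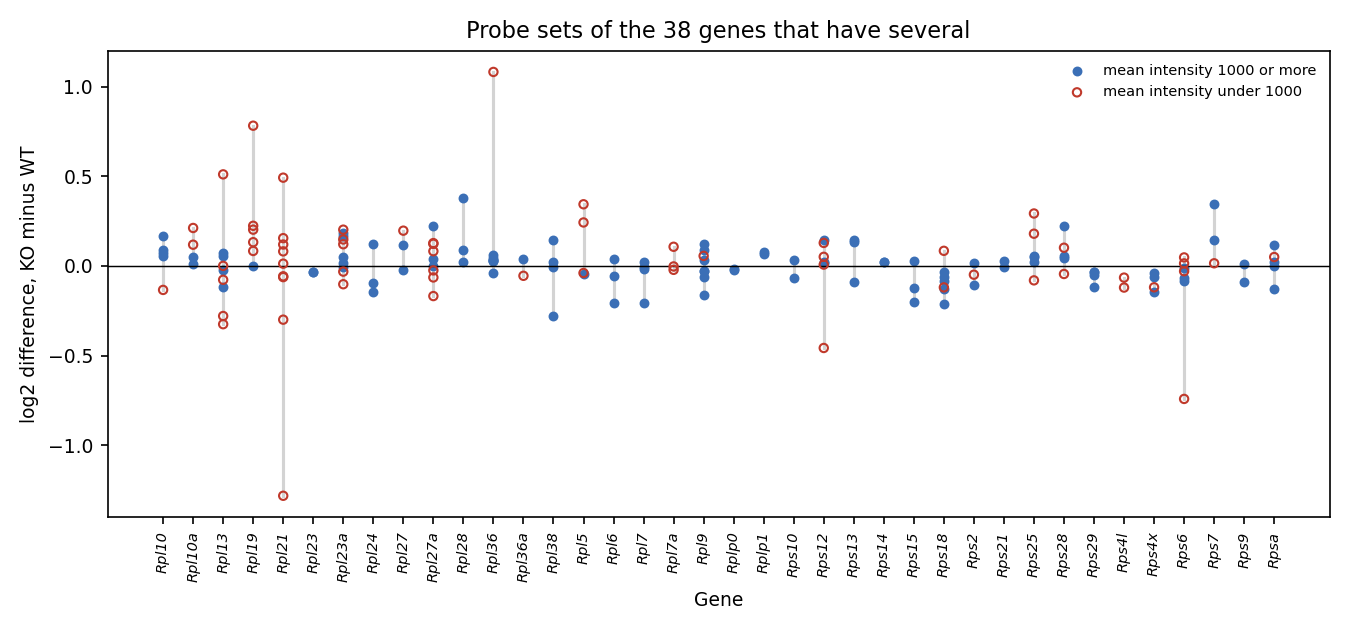
Log2 difference (KO minus WT, y axis) of every probe set of the 38 genes with several, 1 column per gene, with filled points for a mean intensity of 1000 or more and open points for dimmer probe sets. The points farthest from 0, such as *Rpl36* at 1.08 and *Rpl21* at -1.28, are open, and the filled points run from -0.28 (*Rpl38*) to 0.38 (*Rpl28*).

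Few members passed the test between mice. In a limma F-test between the 3 mice, 4 members had an adjusted p under 0.05 (2.07%, against 8.91% of all probe sets tested). At an unadjusted F-test p under 0.05 there were 28 (14.5%, against 22.5% of all). The first principal component of the members, the axis of their largest variance (51.0%), still set mouse 1 apart. Its KO and WT arrays were at -3.43 and -2.85, and the arrays of mice 2 and 3 between 0.73 and 2.34. None of the 116 bright members passed, against 122 of the 740 other probe sets of that intensity (16.5%); the difference between these shares was not tested. The 4 were *Rpl21* 10579839, *Rpl36* 10378783, *Rpl21* 10569996 and *Rpl5* 10344931. *Rpl21* 10579839 read 129, 416 and 584 in KO pDCs of mice 1, 2 and 3, against 128, 419 and 423 in WT pDCs. Its 2 cultures of mouse 1 were below all others (adjusted p of the F-test = 0.00143), whereas *Rpl36* 10378783 and *Rpl5* 10344931 were highest in mouse 1 in both groups. *Rps4x* 10484357 and *Rps6* 10421571 came next, with adjusted p of 0.061 and 0.0597.

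Mouse 1 also stood apart in markers of other cells. All 12 pDC markers measured were above the background percentile, with summed intensities of 41200, 30900 and 28020 in KO pDCs of mice 1, 2 and 3, against 44020, 24070 and 19460 in WT pDCs. Summed neutrophil markers (10 probe sets) were 635, 2535 and 4446 in KO pDCs, against 1448, 8737 and 9935 in WT pDCs. Summed macrophage markers (9 probe sets) were 5924, 24680 and 26310 in KO pDCs, against 6956, 29700 and 30400 in WT pDCs. None of these marker probe sets averaged under the background percentile. Stromal markers (9 probe sets) summed to 614 in KO and 684 in WT pDCs of mouse 1, and to 3551 and 3931 in KO against 10310 and 12280 in WT pDCs of mice 2 and 3. Summed B lineage markers (6 probe sets) were 1098, 2539 and 2728 in KO pDCs, against 855, 3785 and 3546 in WT pDCs. Summed cycling cell markers (9 probe sets) were 5234, 5063 and 4954 in KO pDCs, against 3337, 5787 and 5585 in WT pDCs. The B lineage and cycling sums were higher in KO than in WT pDCs of mouse 1 and lower in mice 2 and 3, as *Rpl39l* was. The neutrophil, macrophage and stromal sums were lower in KO pDCs of every mouse. In mouse 1, some of their probe sets were under the background percentile. Examples are *Ltf* (30.5 in KO, 42.8 in WT) and *Lox* (27.2 in KO, 32.8 in WT). Sums follow the brightest genes, such as *Pcna* in the cycling list, and not every gene followed its sum. Of the neutrophil, macrophage and stromal probe sets, 6 of 10, 5 of 9 and 6 of 9 were lower in all 3 mice. *Mpo*, *Prtn3* and *Elane* were at 0.44, 0.22 and 0.12, and *Igll1* and *Vpreb1* of the B lineage list at 0.29 and 0.21. The part of these markers in the values of *Rpl39l*, *Rps6* 10421571 and *Rpl36* 10378783 was not tested.

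Genes that work beside the ribosomal proteins were read from lists. *Fau*, which encodes the small-subunit protein that the naming rule misses, had 2 probe sets at 0.03 and 0.13. Elongation factors and other TOP mRNAs (22 probe sets) had a median of -0.02. In this list, 1 probe set was higher at an unadjusted limma p under 0.05 (4.55%, against 5.14% of all) and 0 lower. That was the dimmer probe set of *Btf3*, a subunit of the nascent polypeptide-associated complex, at 0.35 ± 0.12, and the brighter was at 0.01. The dimmer *Naca* probe set was at -0.28 ± 0.14 and the brighter at 0.02. With mouse as a block 1 probe set of this list was higher, that of *Btf3*, and 1 lower, that of *Naca*. These were 4.55% each, against 7.46% and 5.99% of all. *Eef1a1*, which delivers aminoacyl-tRNAs, was at -0.13 ± 0.10. Mitochondrial ribosomal proteins (85 probe sets), which serve a separate ribosome, had a median of 0.00, with 0 higher and 4 lower (4.71%, against 1.9% of all).

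Ribosome biogenesis genes had the lowest median of these lists. Over 38 probe sets of nucleolar and assembly factors it was -0.09, with medians of -0.083, -0.132 and -0.038 in mice 1, 2 and 3. The median was 0.03 over all probe sets, but -0.045 over the 10820 left when dim ones were taken out. Of the 38, 0 averaged under the background percentile. The limma fit put 1 past an unadjusted p under 0.05, *Nop10* of the H/ACA snoRNPs, at 0.33 ± 0.13 (2.63%, against 5.14% of all higher), and 0 lower. With mouse as a block 4 were lower (10.5%, against 5.99% of all), *Wdr12*, *Mybbp1a*, *Dkc1* and *Tsr1*, at -0.32, -0.31, -0.30 and -0.25, and none passed after adjustment. Of the 38, 14 were lower in all 3 mice (36.8%, against 17.4% of all) and 2 were higher in all 3 (against 21.3% of all). The shares of all include dim probe sets. Of the 1204 receptor probe sets, 2.66% were lower and 428 higher in all 3 mice. Of the 740 non-member probe sets with an intensity of 1000 or more, 25% were lower and 120 higher. No comparison matched to the intensity of the 38 was made. In the list of mTOR and MYC control genes (23 probe sets, median -0.04), 1 was lower (4.35%, against 1.9% of all), an *Eif4e* probe set at -0.36 ± 0.12, while the other 2 of that cap-binding protein were at -0.06 and 0.06. *Myc*, a driver of ribosomal gene transcription, read 63.5, 177 and 203 in KO pDCs of mice 1, 2 and 3, against 80.1, 347 and 442 in WT pDCs. It was lower in each mouse, by most in mice 2 and 3 (-0.34, -0.97 and -1.12). The mean was -0.81 ± 0.75 (SE, limma adjusted p = 0.815). With mouse as a block the unadjusted limma p of *Myc* was 0.00202. In that fit 2 of the 23 probe sets were lower at an unadjusted p under 0.05 (8.7%, against 5.99% of all). They were *Myc* and the same *Eif4e* probe set, and none passed after adjustment. *Myc* too was lowest in mouse 1, where the macrophage and stromal sums were low, and a link between them was not tested.

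**Figure D5:**
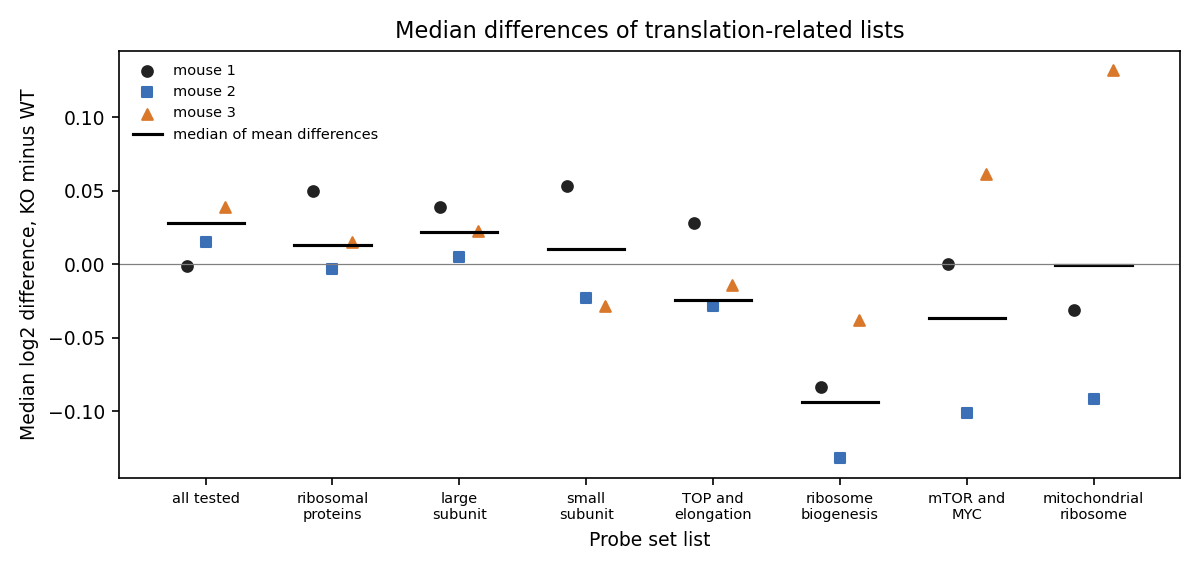
Median log2 difference (KO minus WT, y axis) over the probe sets of each translation-related list and of all probe sets tested (x axis), with a symbol for each of the 3 mice and a bar for the median of the mean differences. Ribosomal proteins lie at 0.050, -0.003 and 0.015 in mice 1, 2 and 3, and ribosome biogenesis genes are below 0 in each mouse.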

How the data were processed

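RNA of 6 pDC cultures (3 mice, KO and WT each) was measured on Affymetrix arrays. The deposited values were linear intensities per probe set, which the authors had summarised and normalized between arrays, by a method not given in the sources used here. Depth does not apply, and the number of arrays limits the precision. From them log2 values were computed, and 34760 probe sets were named through GEO's platform annotation: 21640 had 1 symbol and were tested, 1321 had several and 11799 none.

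KO minus WT was fitted with limma 3.58.1 in R 4.3.3 (lmFit, eBayes, group only), with Benjamini-Hochberg adjustment over all 21640. Differences between mice were tested with an F-test in a fit with group and mouse. KO and WT of a number come from the same mouse, and their deviations from the group means correlated at 0.808, 0.512 and 0.671 for mice 1, 2 and 3 (0.615, 0.204 and 0.328 over the members). Mouse as a block was an alternative, as were array weights, a trended fit, another normalization, centring, filters and floors, 1 value per gene, and leaving out arrays or mice. Replicates of a group are cultures of different mice.

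Named with values were the 8 members of largest difference in each direction among those alike in all 3 mice, every *Rpl36* probe set, the 4 smallest p of each class, genes of special role, ranges for genes with 3 or more probe sets, and the 6 smallest F-test p. Others named for not overlapping or for the block fit were chosen after their values were seen. Members and lists were chosen with earlier results of these data known. In simulated data for KO minus WT over 21640 probe sets, the fit called 15.2%, 58.8%, 88% and 95.2% of probe sets changed by 0.585, 1, 2 and 3 on the log2 scale. The simulated noise was independent between arrays and probe sets, with no part shared by the cultures of a mouse. These shares therefore need not hold for the data, where *Xcl1*, at 1.18 ± 0.18 (SE), had a limma adjusted p of 0.692. Start-site sequences are from RefSeq.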

Additional observations from a re-analysis of the deposited data

How the results depend on the processing

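No member passed the adjusted threshold under any alternative except leaving out mouse 1, where *Rpl39l* did (-1.51 on the log2 scale). Over the fits that left out an array or a mouse, the number of members past the adjusted threshold ran from 0 to 1. The number higher at an unadjusted p under 0.05 ran from 0 to 5, the number lower from 0 to 8, the median difference from -0.025 to 0.033, and the number that differed between mice from 0 to 5. The medians ran from -0.073 to 0.010 for elongation factors and other TOP mRNAs and from -0.123 to -0.042 for ribosome biogenesis. With mouse as a replicate block, which the shared mice allow, 7 members were higher and 4 lower at an unadjusted p under 0.05, and no adjusted call changed. With array weights 9 were higher (4.66%, against 14.3% of all) and 4 lower (2.07%, against 7.58%). Centring the arrays gave 1 higher, a median of -0.042 for the members, -0.080 for elongation factors and other TOP mRNAs and -0.149 for ribosome biogenesis. Without dim probe sets 0 were lower, a floor gave 5 higher and 0 lower, all probe sets of the array gave 1 higher, and 1 value per gene gave 0 higher, 0 lower and a median of -0.019. Members that differed between mice numbered 10 without dim probe sets and 9 with a trended, robust fit. The causes were not tested.

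Probe sets that changed sign were close to 0 in most cases. Array weights gave -0.00096 for *Rpl36* 10394609, -0.032 for *Rpl36* 10592138, 0.055 for *Rplp2*, -0.045 for *Rps27l*, 0.012 for *Rplp0* 10436694, -0.044 for *Rpl21* 10579839 and 0.0080 for *Rps4x* 10484357. A further quantile normalization gave 0.020 for *Rplp2* and 0.042 for *Rpl22*. Centring gave -0.028, -0.027, -0.022, -0.022 and -0.0094 for *Rpl36* 10394609, 10446131, 10592138, 10426648 and 10471358. A floor gave 0.09 for *Rps12* 10475435. Over the fits without an array or a mouse, the ranges that crossed 0 were -0.109 to 0.043 (*Rpl10l*), -0.299 to 0.138 (*Rpl21* 10569996), -0.416 to 0.798 (*Rpl21* 10579839), -0.074 to 0.046 (*Rpl22*), -0.327 to 0.0034 (*Rpl3l*), -0.062 to 0.046 and -0.078 to 0.054 (*Rplp0* 10436694 and 10524718), -0.136 to 0.058 (*Rplp2*), -0.192 to 0.021 (*Rps19*), -0.021 to 0.255 (*Rps27l*) and -0.213 to 0.118 (*Rps4x* 10484357). For *Rpl36* they were -0.102 to 0.227 (10394609), -0.0011 to 0.104 (10426648), -0.0066 to 0.046 (10446131), -0.0025 to 0.111 (10471358), -0.119 to 0.028 (10546801) and -0.017 to 0.098 (10592138).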

Other observations

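A further 207 probe sets named a ribosomal protein gene together with another symbol and entered no comparison above. They are the only probe sets used here for 17 genes, among them *Rpl11*, *Rpl3*, *Rpl32*, *Rpl39*, *Rps24* and *Rps27*. In a fit over all 34760 probe sets of the array their median log2 difference, KO minus WT, was 0.04, with a range of -0.62 to 1.08. None passed the adjusted threshold, and at an unadjusted limma p under 0.05 there were 7 higher (3.38%, against 4.87% of all) and 0 lower (against 1.83% of all). *Rpl22l1*, a paralog of *Rpl22*, shared 2 of its probe sets with a predicted gene. Probe set 10528474 read 1368, 1235 and 1389.8 in KO pDCs of mice 1, 2 and 3, against 1013, 1183 and 1078 in WT pDCs (0.29 ± 0.11, SE, limma adjusted p = 0.738), with no overlap between the groups. Of the 6 *Rpl11* probe sets shared with *Brf2*, probe set 10451301 was at 0.35 ± 0.13 and the brightest, 10594142, at -0.03 ± 0.09.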
